A study of Mus musculus with 6 samples.

Results

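Natriuretic peptide receptors and adenylate cyclases make, or in one case withhold, the second messengers cyclic GMP and cyclic AMP. The 10 genes described here, of 17128 genes in the count table, are Npr1, Npr2 and Npr3 and the adenylate cyclase genes Adcy2, Adcy3, Adcy4, Adcy5, Adcy6, Adcy7 and Adcy9. They were found by their symbols. Npr1 and Adcy2 were chosen by their difference in these libraries, where they were higher in CXCL12-deficient cells, so their difference between the groups is given as a description without a test, and the other 8 were taken as their relatives. All 10 were in the table and all 10 passed the filter on low counts.

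RNA was sequenced from sorted bone marrow stromal cells of mouse femurs at postnatal day 21. The 3 CXCL12-deficient libraries held GFP+ tdTomato+ cells from Cxcl12(GFP/fl); Col2a1-cre; R26R(tdTomato/+) mice, and the 3 Control libraries held GFP+ cells from Cxcl12(GFP/fl); R26R(tdTomato/+) mice. Both groups therefore carried GFP in place of one Cxcl12 allele and a floxed second allele. Cre was driven by the promoter of Col2a1, a cartilage collagen gene, so it marked descendants of Col2a1-expressing cells, and the sorting gate, the presence of cre and the loss of the floxed allele changed together and cannot be told apart. About 20000 cells went into a library. The labels number no replicates: the numbers used here only name the libraries of a group and pair none between groups. Whether the libraries of a group came from separate animals is not in the labels, so p-values reflect only how far these libraries varied.

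Total counts ran from 22865174 to 25155012 in CXCL12-deficient libraries and from 20133299 to 28009257 in Control libraries, and a single read equalled 0.0357 to 0.0472 CPM, the reads of a gene relative to the TMM-scaled total of its library. Cxcl12 had 1289 ± 130 CPM in CXCL12-deficient and 3747 ± 112 CPM in Control libraries (SD, n = 3 each). The receptor genes Lepr and Pdgfrb, taken here as markers of stroma, were present in every library. Lepr, the leptin receptor, had 810 to 1260 CPM in CXCL12-deficient and 630 to 688 CPM in Control libraries. Pdgfrb, a receptor of platelet-derived growth factor, had 511 to 787 CPM in CXCL12-deficient and 464 to 526 CPM in Control libraries. Markers of leukocytes and of vessels were lower in CXCL12-deficient cells. A gene is called here where its adjusted p in edgeR, or in another tool that is named, was below 0.05, and edgeR called 3.94% of all tested genes lower. The summed level of 11 leukocyte and macrophage genes ran from 596 to 1236 CPM in CXCL12-deficient libraries and from 3253 to 4673 CPM in Control libraries, and 9 of the 11 were called lower. Of 15 endothelial genes 8 were called lower, with sums of 166 to 190 CPM in CXCL12-deficient and 298 to 383 CPM in Control libraries.

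Npr1 and Npr2 proteins are receptors with a guanylate cyclase inside the cell. Npr1 binds the atrial and brain natriuretic peptides and is known for lowering blood pressure and for driving lipolysis in human fat cells, while Npr2 binds C-type natriuretic peptide and is needed for the lengthening of bones at the growth plate. Npr3 has no cyclase and clears the peptides from the tissue. Membrane adenylate cyclases are the enzymes on which G protein-coupled receptors converge: the stimulatory G protein raises their output of cyclic AMP, and the isoforms differ in how calcium, protein kinases and other G protein subunits modify it. In bone the best known receptor of this kind is that of parathyroid hormone.

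The promoters of Npr1 and Adcy2 are shown because these genes were the pair with higher counts in CXCL12-deficient cells. Each is the 250 bases upstream of the RefSeq start on GRCm38.p6, read along the gene, with GC boxes in capitals. Npr1 lies on the minus strand at chr3:90465867-90466116 and Adcy2 on the minus strand at chr13:68999542-68999791.
Npr1: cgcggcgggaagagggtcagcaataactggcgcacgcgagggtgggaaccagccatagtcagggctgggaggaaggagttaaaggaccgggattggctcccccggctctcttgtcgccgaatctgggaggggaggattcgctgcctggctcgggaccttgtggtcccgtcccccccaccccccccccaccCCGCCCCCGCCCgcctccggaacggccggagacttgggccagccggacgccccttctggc
Adcy2: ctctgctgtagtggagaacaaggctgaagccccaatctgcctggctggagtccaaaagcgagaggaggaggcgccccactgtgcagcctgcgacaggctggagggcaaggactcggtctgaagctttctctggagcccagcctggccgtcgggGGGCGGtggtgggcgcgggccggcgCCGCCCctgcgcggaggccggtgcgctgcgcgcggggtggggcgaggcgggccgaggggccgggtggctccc

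Each of these windows held 2 GC boxes, searched as GGGCGG on both strands, and 1 CCAAT box, searched as CCAAT on both strands. Of 32851 mouse promoter windows of the same length, 32.7% held a GC box and 33.8% a CCAAT box. Neither window held the half-site of the cyclic AMP response element, TGACG on either strand, which 17.8% of all windows held, nor a TATA box (TATAAA, 12.4%) or an E-box (CACGTG, 6.02%). Both were rich in G and C, with 70.4% for Npr1 and 73.2% for Adcy2, where the median of all windows was 52.4%. The other members with a sequence ranged from 38.8% for Npr3 to 78.8% for Adcy9. TGACG was found in windows of Npr3, Adcy7 and Adcy9. Promoters were matched for 9 of the 10 members, 12 windows in all.

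Npr1, the receptor of atrial natriuretic peptide, was a low-level gene in Control cells and a middling one in CXCL12-deficient cells. It had 22.7, 14.0 and 25.4 CPM in CXCL12-deficient libraries, against 4.64, 8.54 and 4.91 CPM in Control libraries. CXCL12-deficient replicate 2 was the lowest of its group and Control replicate 2 the highest of its group, yet the groups did not overlap. The fold change was 3.43, or 1.78 ± 0.34 on the log2 scale (SE). The reads behind these values numbered 321 to 571 in CXCL12-deficient and 104 to 210 in Control libraries. The gene spans chr3:90450591-90465866 on the minus strand of GRCm38, and 11.7% of its exon bases are shared with an antisense gene, Gm16048. No strand setting is given in the sources used here, so reads from the 2 genes cannot be told apart.

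Npr2, the receptor of C-type natriuretic peptide, was the main receptor of the family in both groups. It had 62.2, 94.7 and 93.9 CPM in CXCL12-deficient libraries, against 79.7, 59.5 and 64.9 CPM in Control libraries. The groups overlapped, since CXCL12-deficient replicate 1 lay below 2 of the 3 Control libraries. The log2 fold change was 0.30, with a 95% interval from -0.17 to 0.76 (adjusted p = 0.495, edgeR).

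Npr3, the clearance receptor, was barely detected. It had 0.791, 0.0872 and 0.178 CPM in CXCL12-deficient libraries, against 1.14, 0.325 and 0.472 CPM in Control libraries, from 2 to 19 reads in CXCL12-deficient and 8 to 32 reads in Control libraries. The groups overlapped, and each had 1 library well above its other 2. With so few reads and this spread the log2 fold change could lie anywhere between -3.19 and 1.45 (95% interval; estimate -0.87, adjusted p = 0.716, edgeR).

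Read per length, the receptors came to 22.3 ± 3.74 CPM per kilobase of exon in CXCL12-deficient and 15.9 ± 1.97 CPM per kilobase in Control libraries (sum of the 3 genes; SD, n = 3 each). Npr1 made up 26.1%, 12.6% and 20.8% of that sum in CXCL12-deficient libraries, against 5.34%, 12.2% and 6.85% in Control libraries. CXCL12-deficient replicate 2 and Control replicate 2 stood almost level. Npr2 held 80.0% ± 7.01 in CXCL12-deficient and 91.4% ± 3.45 in Control libraries.

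**Figure D1:**
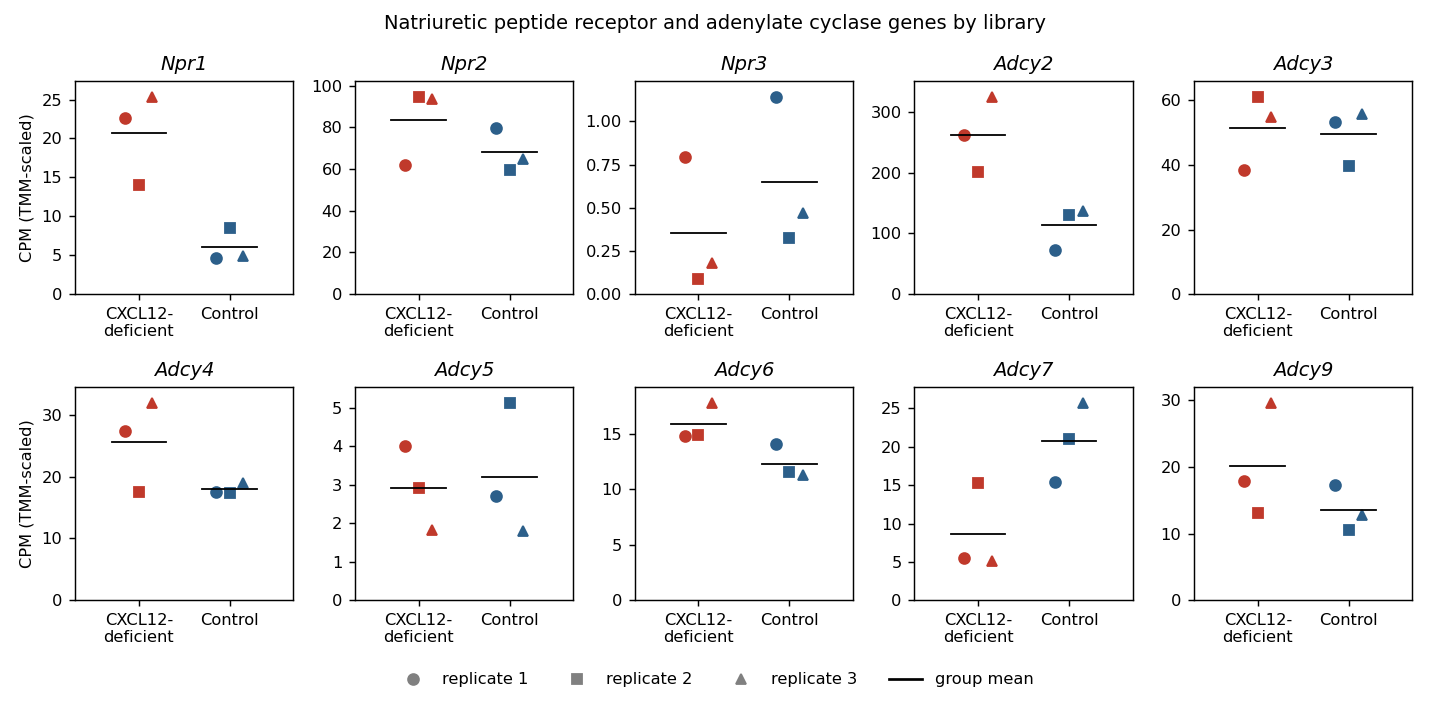
Level of each of the 10 genes (y axis, TMM-scaled CPM, from 0) in the 3 CXCL12-deficient and 3 Control libraries (x axis), with a marker shape per replicate number and a line at the group mean. Npr1, Adcy2 and Adcy6 lie higher in every CXCL12-deficient library than in any Control library, Adcy7 lies lower, and the other 6 genes overlap.

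Among the adenylate cyclases, Adcy2, Adcy4 and Adcy7 form the subgroup that G protein beta-gamma subunits stimulate together with the stimulatory G protein. Adcy2 and Adcy4 had positive log2 fold changes and Adcy7 a negative one, and edgeR called neither Adcy4 nor Adcy7. Adcy2 had 263, 201 and 325 CPM in CXCL12-deficient libraries, against 72.7, 130 and 137 CPM in Control libraries. Every CXCL12-deficient library was above every Control library, with CXCL12-deficient replicate 2 again the lowest of its group and Control replicate 1 the lowest overall. The fold change was 2.32, or 1.21 ± 0.27 on the log2 scale (SE), from at least 2035 reads in any library. Adcy2 spans chr13:68620043-68999541 on the minus strand, and 4.49% of its exon bases are shared with the antisense gene Gm35161.

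Adcy4 is also known from blood vessel cells. It had 27.3, 17.5 and 31.9 CPM in CXCL12-deficient libraries, against 17.5, 17.4 and 18.9 CPM in Control libraries. The Control libraries lay close together, and CXCL12-deficient replicate 2 fell among them while the other 2 lay above. The log2 fold change was 0.51 (95% interval -0.05 to 1.07; adjusted p = 0.306, edgeR). The endothelial markers were lower in the same CXCL12-deficient libraries: Cdh5, the vascular cadherin, had 0.625, 0.0872 and 0.488 CPM there, against 6.14, 3.58 and 4.63 CPM in Control libraries. Their part in the value of Adcy4 was not tested.

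Adcy7 is the cyclase isoform best known from blood cells. It had 5.46, 15.2 and 5.15 CPM in CXCL12-deficient libraries, against 15.5, 21.0 and 25.7 CPM in Control libraries. The groups did not overlap, but CXCL12-deficient replicate 2 lay just below Control replicate 1. The log2 fold change of -1.27 (95% interval -2.24 to -0.29) did not pass the test (adjusted p = 0.151, edgeR). It passed with DESeq2 (adjusted p = 0.0423) and, in edgeR, without CXCL12-deficient replicate 2 (-1.96, adjusted p = 0.0258).

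The leukocyte antigen gene Ptprc (CD45) ranked the libraries of each group in the order that Adcy7 did. Ptprc had 12.7, 16.9 and 10.2 CPM in CXCL12-deficient replicates 1, 2 and 3, and 59.8, 75.4 and 107 CPM in Control replicates 1, 2 and 3. Csf1r, the other defining marker of leukocytes and macrophages, did not share that order among CXCL12-deficient libraries, with 24.2, 12.65 and 19.27 CPM. Nor did the summed leukocyte and macrophage genes, which came to 1236, 812 and 596 CPM in these libraries. Most listed genes of neutrophils, megakaryocytes and the B lineage were lower in the same libraries, while those of erythroid cells were not. Of 15 neutrophil genes 13 were called lower, with sums of 3004 to 7512 CPM in CXCL12-deficient and 15970 to 21850 CPM in Control libraries. Of 7 tested megakaryocyte genes 5 were called lower, and of 9 B lineage genes 3. Of 6 erythroid genes 0 were called and 5 had a positive log2 fold change. Their sums ran from 1471 to 6814 CPM in CXCL12-deficient and from 2482 to 3350 CPM in Control libraries. In sorted bulk samples fewer cells of a type and less RNA per cell cannot be told apart, and the part of these blood cells in the value of Adcy7 was not tested.

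Adcy5 and Adcy6 are the isoforms that calcium inhibits. Adcy6 had 14.8, 14.9 and 17.8 CPM in CXCL12-deficient libraries, against 14.1, 11.5 and 11.2 CPM in Control libraries. The groups did not overlap, by a margin of less than 1 CPM. The log2 fold change was 0.37 (95% interval -0.15 to 0.88; adjusted p = 0.444, edgeR). Adcy5 was low, with 3.999, 2.92 and 1.82 CPM in CXCL12-deficient libraries, against 2.71, 5.12 and 1.80 CPM in Control libraries. These groups overlapped fully (log2 fold change -0.14, 95% interval -1.37 to 1.09, adjusted p = 0.927, edgeR).

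Adcy3, known from olfactory neurons and fat tissue, had 38.5, 61.1 and 55.0 CPM in CXCL12-deficient libraries, against 53.2, 39.7 and 55.9 CPM in Control libraries. The groups overlapped, and the log2 fold change of 0.06 had a 95% interval from -0.44 to 0.55 (adjusted p = 0.927, edgeR). Its gene shares 22.1% of its exon bases with the protein-coding gene Cenpo on the other strand, which itself had 29.0 ± 3.40 CPM in CXCL12-deficient and 29.8 ± 5.81 CPM in Control libraries. Adcy9, a widely expressed isoform, had 17.9, 13.04 and 29.6 CPM in CXCL12-deficient libraries, against 17.2, 10.5 and 12.7 CPM in Control libraries. CXCL12-deficient replicate 3 stood above the rest and the other 5 libraries overlapped (log2 fold change 0.58, 95% interval -0.17 to 1.34, adjusted p = 0.396, edgeR).

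The 8 relatives lie apart from each other in the genome (GRCm38). Npr2 is on the plus strand at chr4:43631935-43651244 and Npr3 on the minus strand at chr15:11839896-11907287. The vessel and blood isoforms Adcy4 and Adcy7 are at chr14:55769057-55784095 (minus) and chr8:88272403-88329962 (plus). Adcy5 is at chr16:35154877-35305738 (plus) and Adcy9 on the same chromosome at chr16:4287529-4420498 (minus). Adcy3 is at chr12:4133103-4213525 (plus) and Adcy6 at chr15:98589973-98610076 (minus). Npr2, Npr3 and Adcy6 share 5.70%, 3.42% and 8.92% of their exon bases with a noncoding gene on the other strand, while Adcy4, Adcy5, Adcy7 and Adcy9 share none.

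Across all tested genes, 0.639% were called higher and 3.94% lower at an adjusted p below 0.05, 4.57% in all. Npr1 and Adcy2 were among those called higher, which is how they were chosen. Of the other 8 members, 0 were called by edgeR, by limma-voom or by limma on the deposited log2 values, and DESeq2 called 1, Adcy7, as lower. Over all genes that it tested, DESeq2 called 2.21% higher and 7.25% lower, 9.46% in all. Limma-voom called 0.661% higher and 3.91% lower, and limma on the deposited log2 values 0.666% and 4.68%, 5.35% in all. Each of these tools gave 1 of the 8 an unadjusted p below 0.05, edgeR's being that of Adcy7. No share of all tested genes was computed at that unadjusted threshold. Of the 8 relatives, 1 was higher and 1 lower without overlap between the groups, where 11.7% and 13.9% of all tested genes were, 25.6% in all. The median log2 fold change of the 8 was 0.18, against 0.03 for all tested genes.

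**Figure D2:**
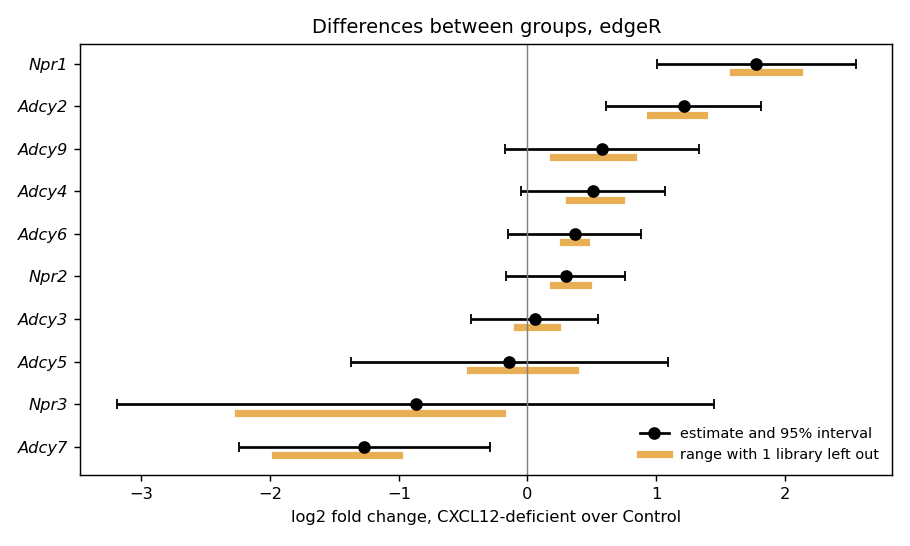
Log2 fold change of each gene, CXCL12-deficient over Control (x axis), with its 95% interval from edgeR (black) and the range of estimates when 1 of the 6 libraries was left out (orange). The estimate of Npr1 ran from 1.60 to 2.11 and that of Adcy2 from 0.95 to 1.37 under leave-one-out, and the ranges of Adcy3 and Adcy5 crossed 0. Npr1 and Adcy2 were chosen by this contrast, so their intervals are a description and no test. Npr1 was called in 2 and Adcy2 in 1 of the 6 refits.

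Levels of the genes can be compared with each other only per length. On that scale Adcy2 led both groups, with 62.4 CPM per kilobase in CXCL12-deficient and 26.9 CPM per kilobase in Control libraries. Npr2 followed with 17.9 and Adcy3 with 8.25 CPM per kilobase in CXCL12-deficient libraries, against 14.6 and 7.94 CPM per kilobase in Control libraries. Adcy2, Npr2 and Adcy3 did not overlap with each other in either group, whereas Adcy4, Npr1, Adcy9, Adcy6 and Adcy7 formed a run in which each gene overlapped the next, led by Adcy4 in both groups. In CXCL12-deficient libraries Adcy3 overlapped Adcy4 as well. Within that run Npr1 held rank 5 of the 10 genes in CXCL12-deficient cells, at 4.32 CPM per kilobase, and rank 8 in Control cells, at 1.26. Adcy7 held rank 8 in CXCL12-deficient cells, at 1.28 CPM per kilobase, and rank 5 in Control cells, at 3.08. Adcy5 and Npr3 came last in both groups.

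Adcy2 was the main adenylate cyclase transcript. Of the summed level per length of the 9 adenylate cyclase genes in the table, it held 76.5%, 69.1% and 75.4% in CXCL12-deficient libraries, against 45.6%, 63.5% and 60.5% in Control libraries. No CXCL12-deficient library was as low as any Control library. That sum was 84.2 ± 16.9 CPM per kilobase in CXCL12-deficient and 46.8 ± 8.22 in Control libraries. The share of Adcy7 was 1.67% ± 1.40 in CXCL12-deficient and 6.52% ± 0.514 in Control libraries, and that of Adcy3 was 10.1% ± 3.57 in CXCL12-deficient and 17.4% ± 4.79 in Control libraries. Shares of a sum depend on each other: where that of Adcy2 is larger, the other genes together hold less.

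**Figure D3:**
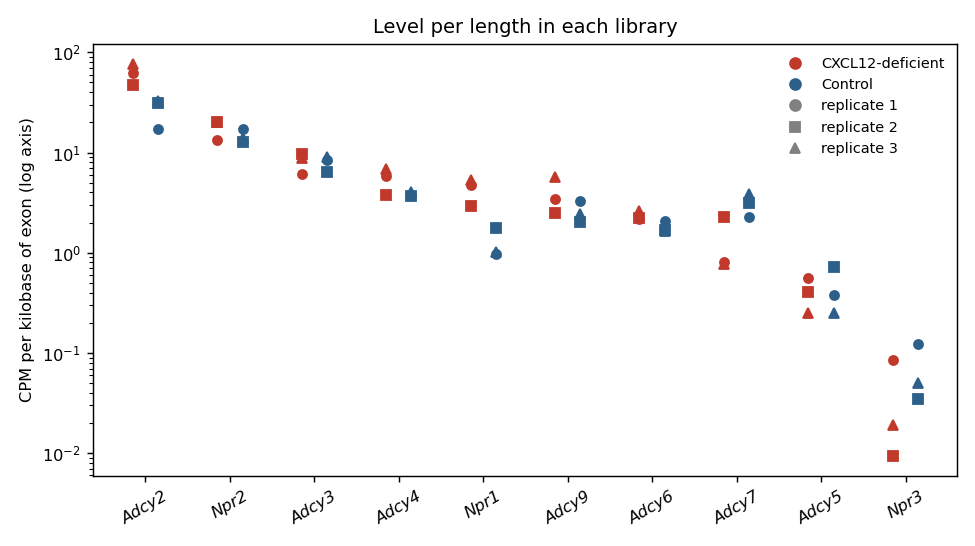
Level per length of each gene in every library (y axis, CPM per kilobase of exon, log axis), with genes ordered by their mean in CXCL12-deficient libraries. Adcy2 lies highest in all 6 libraries and Npr3 lowest.

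The stromal markers Lepr and Pdgfrb also had higher means in CXCL12-deficient cells, so Npr1 and Adcy2 were set against them; this was chosen after the values were seen and is a description. For each 1000 reads of Lepr there were 19.6, 17.3 and 20.1 reads of Npr1 in CXCL12-deficient libraries, against 7.37, 12.4 and 7.72 in Control libraries. The spread among CXCL12-deficient libraries was small on this scale, and the ratio of the means was 2.07, less than the fold change of CPM. Reads of Adcy2 for each 1000 reads of Lepr numbered 227, 248 and 258 in CXCL12-deficient libraries, against 115, 189 and 216 in Control libraries, a ratio of 1.41. In both cases the groups did not overlap, though for Adcy2 Control replicate 3 came close.

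Against Pdgfrb the groups overlapped for Npr1 and Adcy2. Npr1 had 44.3, 17.8 and 34.5 reads for each 1000 reads of Pdgfrb in CXCL12-deficient libraries, against 8.82, 18.4 and 9.77 in Control libraries. Adcy2 had 514, 255 and 442 in CXCL12-deficient libraries, against 138, 281 and 273 in Control libraries. CXCL12-deficient replicate 2, the lowest of its group in Npr1 and Adcy2, fell into the range of the Control libraries in both cases. Npr2, Adcy3 and Adcy7 were lower against Pdgfrb in every CXCL12-deficient library than in any Control library. Their ratios of means were 0.905, 0.766 and 0.295, and for Npr2 the groups all but touched, with 120 to 128 reads for each 1000 reads of Pdgfrb in CXCL12-deficient and 128 to 151 in Control libraries. Pdgfrb itself had 677 CPM in CXCL12-deficient and 498 CPM in Control libraries on average, and a larger divisor lowers such ratios. In CPM the groups overlapped for Npr2 and Adcy3, with log2 fold changes of 0.30 and 0.06. How many of all genes were lower without overlap on this scale was not computed.

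**Figure D4:**
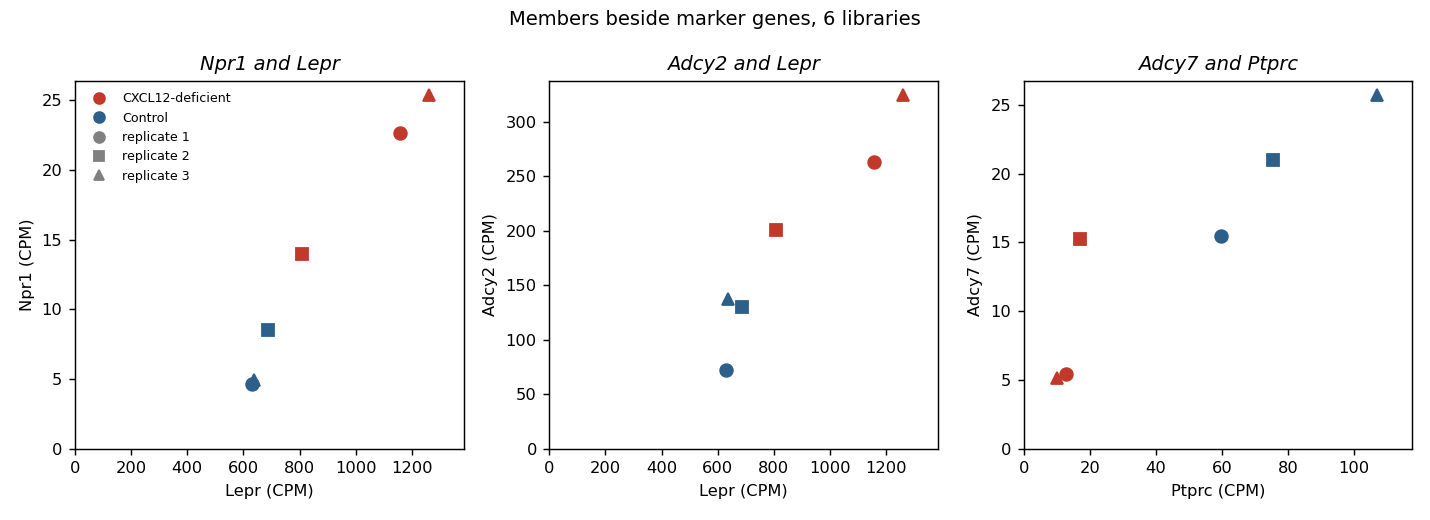
Npr1 and Adcy2 (y axes, CPM) beside Lepr, and Adcy7 beside the leukocyte gene Ptprc (x axes, CPM), in the 3 CXCL12-deficient and 3 Control libraries. CXCL12-deficient replicates 1 and 3 are highest in Lepr, Npr1 and Adcy2, and CXCL12-deficient replicate 2 lies nearest to the Control libraries.

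Adipocyte genes also had higher means in CXCL12-deficient cells, though most did not follow Npr1 from library to library. The adiponectin gene Adipoq had 2252, 1482 and 2233 CPM in CXCL12-deficient libraries, against 958, 1178 and 887 CPM in Control libraries. As for Npr1, CXCL12-deficient replicate 2 was lowest in its group and Control replicate 2 highest in its own. Pparg shared this order. Cfd, Cidec, Fabp4, Lipe and Plin4 did not: each was lowest of its group in CXCL12-deficient replicate 3, where Npr1 was highest. Cfd had 10.6, 6.02 and 3.29 CPM in CXCL12-deficient replicates 1, 2 and 3. Of 8 tested adipocyte genes 2 were called higher, Adipoq and Cfd, and all 8 had a positive log2 fold change, where 0.639% of all tested genes were called higher and 52.6% had a positive one. Adipoq is on the list of stromal markers as well, of which 3 of 11 were called higher (Ebf3, Adipoq and Cxcl14), 1 was called lower (Cxcl12 itself), and 10 of 11 had a positive log2 fold change. The lipid droplet gene Plin1, a defining adipocyte marker, overlapped between the groups with 6.87, 21.9 and 3.33 CPM in CXCL12-deficient and 14.5, 2.36 and 5.01 CPM in Control libraries. Whether adipocytes had a part in the level of Npr1 was not tested.

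The genes whose profiles were nearest to those of the pair, among 12983 genes whose mean reached 1 CPM, were found by the root-mean-square difference of centred log2 CPM over the 6 libraries. For Npr1 these were G630090E17Rik (0.25), the Wnt antagonist gene Sfrp4 (0.29) and Zfp493 (0.32). For Adcy2 they were the hyaluronidase gene Hyal1 (0.19), the transcription factor gene Foxp2 (0.23) and 3110045C21Rik (0.23). G630090E17Rik and Zfp493 had at most 67 reads in any library.

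Of 90 other genes of cyclic nucleotide signalling, 81 were in the table and 74 were tested. None was called higher by edgeR, and 3 were called lower, which is 3 of 74 beside 0.639% and 3.94% of all tested genes. At an unadjusted p below 0.05 edgeR had 3 higher and 12 lower. The share of all tested genes at that unadjusted threshold was not computed, so these counts cannot be set against it. DESeq2 called 2 higher and 7 lower, limma-voom 0 and 3, and limma on the deposited log2 values 0 and 4. The genes DESeq2 called were Pde1a and Adrb3, both higher, and Nos3, Mrvi1, Pde2a, Pde4b, Gnaz, Ptgir and Nr4a2, all lower. Without overlap between the groups 4 were higher and 16 lower, beside 11.7% and 13.9% of all tested genes. The median log2 fold change was -0.20, against 0.03 for all tested genes, and 28 of the 74 had a positive one.

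The natriuretic peptides themselves were scarcely measured. Of 7 listed genes of the peptides and their processing, 3 were absent from the count table, which says nothing about their level. No level of a ligand of Npr1 is given here. Nppc, which encodes the C-type peptide, had at most 0.799 CPM and did not pass the filter, nor did Ostn, which encodes a bone-made ligand of Npr3. Of the enzymes that process or degrade the peptides, Mme (neprilysin) had 256, 145 and 317 CPM in CXCL12-deficient libraries, against 178, 161 and 151 CPM in Control libraries (adjusted p = 0.288, edgeR). Its groups overlapped because of CXCL12-deficient replicate 2. Furin, a proprotein convertase, overlapped as well, with 90.8 ± 37.4 CPM in CXCL12-deficient and 85.0 ± 12.9 CPM in Control libraries (adjusted p = 0.906, edgeR).

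On the cyclic GMP side, Nos3, the endothelial nitric oxide synthase, was called lower. It had 0, 0 and 4 reads in CXCL12-deficient libraries, against 110, 77 and 162 reads in Control libraries (adjusted p = 0.0161, edgeR). With reads in a single CXCL12-deficient library the size of the difference is loose: the log2 fold change was -6.27, refits without 1 library gave values between -9.89 and -5.71, and the call was lost without Control replicate 2 or 3. The fall of endothelial markers given above was seen in these libraries too, and its part was not tested. Of 4 genes that act downstream of cyclic GMP, 0 were called by edgeR. Prkg1, the cyclic GMP-dependent kinase, had 15.1, 3.66 and 13.01 CPM in CXCL12-deficient libraries, against 5.14, 7.07 and 6.52 CPM in Control libraries (adjusted p = 0.448, edgeR). As for Npr1, CXCL12-deficient replicates 1 and 3 were the highest of the 6. Vasp, a kinase substrate that binds actin filaments, had 129 ± 14.8 CPM in CXCL12-deficient and 169 ± 18.8 CPM in Control libraries (adjusted p = 0.219, edgeR).

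Of 18 phosphodiesterases, which break down cyclic nucleotides, 2 were called lower and 0 higher by edgeR, with a median log2 fold change of -0.54. Pde2a, which cyclic GMP stimulates, had 68.9, 77.1 and 87.1 CPM in CXCL12-deficient libraries, against 120, 136 and 181 CPM in Control libraries (log2 fold change -0.91, adjusted p = 0.0301, edgeR). Pde4b, a cyclic AMP-specific enzyme of many blood cells, had 36.3, 45.6 and 18.3 CPM in CXCL12-deficient libraries, against 79.0, 76.3 and 99.3 CPM in Control libraries (log2 fold change -1.34, adjusted p = 0.0403, edgeR). Both lay lower in every CXCL12-deficient library than in any Control library. Each was called in 2 of the 6 refits without a library, Pde2a without Control replicate 1 or CXCL12-deficient replicate 3 and Pde4b without CXCL12-deficient replicate 2 or 3. The lower leukocyte genes described above concern the same samples, and their part was not tested.

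**Figure D5:**
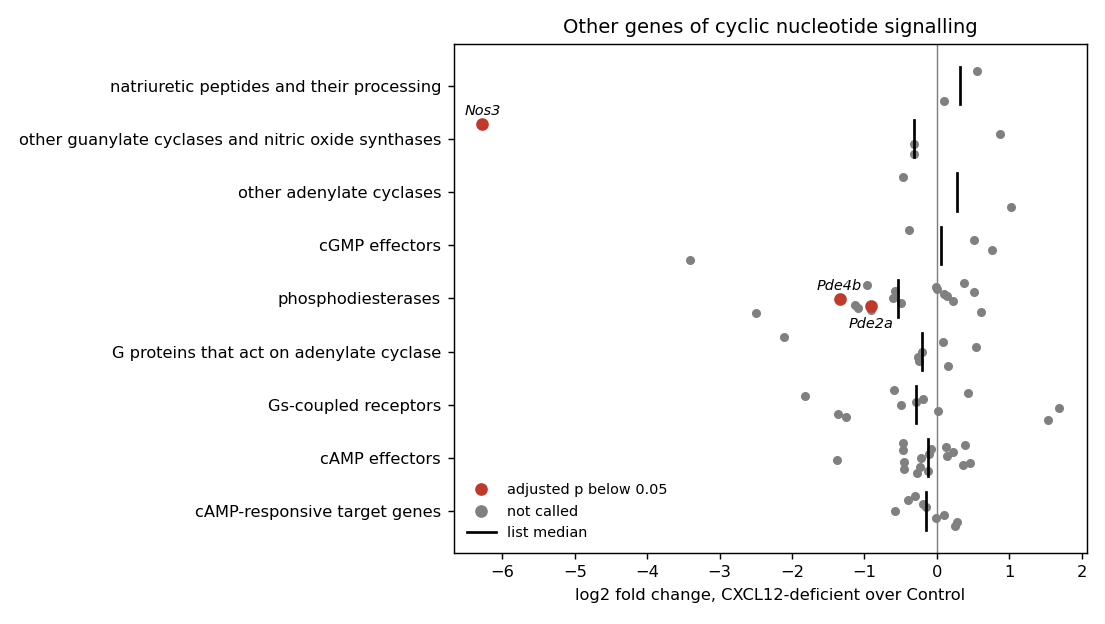
Log2 fold change, CXCL12-deficient over Control (x axis), of each tested gene of cyclic nucleotide signalling other than the 10 members, by list (y axis), with called genes in red and list medians as black lines. Nos3, Pde2a and Pde4b are the called genes, all to the left of 0.

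Of the listed G proteins, receptors coupled to the stimulatory G protein, cyclic AMP effectors and cyclic AMP target genes, none was called by edgeR. The stimulatory G protein gene Gnas had 1213 to 1393 CPM in CXCL12-deficient and 1127 to 1332 CPM in Control libraries (adjusted p = 0.84, edgeR). The inhibitory G protein gene Gnai2 was lower without overlap, with 367 to 396 CPM in CXCL12-deficient and 443 to 465 CPM in Control libraries (adjusted p = 0.359, edgeR). Of 11 tested receptors coupled to the stimulatory G protein, 4 had a positive and 7 a negative log2 fold change, with a median of -0.29. Without overlap between the groups 1 was higher and 4 lower, beside 11.7% and 13.9% of all tested genes. Pth1r, the parathyroid hormone receptor, had 529, 639 and 605 CPM in CXCL12-deficient libraries, against 635, 379 and 305 CPM in Control libraries (adjusted p = 0.424, edgeR). Control replicate 1 lay among the CXCL12-deficient libraries.

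Adrb3, the beta-adrenergic receptor of fat cells and, in mice, of the marrow stroma, was named after its values were seen. It had 12.8, 9.46 and 27.3 CPM in CXCL12-deficient libraries, against 4.14, 6.10 and 5.20 CPM in Control libraries. The groups did not overlap, and its log2 fold change of 1.68 ± 0.41 (SE) missed the threshold (adjusted p = 0.0545, edgeR). CXCL12-deficient replicate 2 was again the lowest of its group and Control replicate 2 the highest of its own, as in Npr1. DESeq2 called it, as did edgeR without the filter on low counts and without CXCL12-deficient replicate 2.

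The cyclic AMP-dependent kinase subunit genes Prkar1a and Prkar2b had 801 ± 72.8 and 135 ± 13.1 CPM in CXCL12-deficient libraries, against 688 ± 21.0 and 123 ± 8.76 CPM in Control libraries (adjusted p = 0.492 and 0.692, edgeR). Of 17 effectors of cyclic AMP 0 were called by edgeR. Nor was any of 9 target genes that cyclic AMP is known to induce, for which the median log2 fold change was -0.15. The most abundant were Fos, with 3336 to 5648 CPM in CXCL12-deficient and 3202 to 4547 CPM in Control libraries, and Dusp1, with 1379 to 2185 CPM in CXCL12-deficient and 1462 to 1547 CPM in Control libraries. Both are also induced when tissue is digested to single cells, as was done here. The adenylate cyclase genes outside the 10 members were low: Adcy1 had 0.355 to 4.01 CPM in CXCL12-deficient and 0.488 to 1.75 CPM in Control libraries, and Adcy10, a soluble cyclase, had 0.174 to 1.24 CPM in CXCL12-deficient and 0.520 to 1.02 CPM in Control libraries.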

How the data were processed

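The authors deposited raw integer counts for each gene, a depth-normalized signal table, which equalled the counts divided by 1 factor per library, and regularized log2 values. The submitters' processing notes name TopHat2 2.0.13, Bowtie2 2.2.1, HTSeq, DESeq2 and mm10, without roles. The sources used here do not give the annotation, the strand setting or the treatment of shared reads. The 4 exon entries of Cxcl12 were summed.

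CXCL12-deficient and Control libraries (n = 3 each) were compared in edgeR 4.0.16 (R 4.3.3) by its quasi-likelihood F-test (robust shrinkage), using TMM factors, filterByExpr (minimum count 10, minimum total 15; 13926 genes kept) and Benjamini-Hochberg adjustment over all tested genes; called means an adjusted p below 0.05. SE came from the F statistic. The code of the fit was checked on counts simulated with the same spread for every gene, which does not test it on the spread of these libraries. Alternatives used DESeq2 1.42.0 and limma 3.58.1. Levels per length used the union of exons in GENCODE M21 (GRCm38). Members and lists were chosen with earlier results of these data known. Pathway genes named are those called or, where none was, the 2 most abundant of a list; 1 of these is not reported here. Of 204 listed entries 190 were matched, 5 under an older symbol. Depth is that of PCR-amplified reads, so limits cover counting error only.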

Additional observations from a re-analysis of the deposited data

How the results depend on the processing

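No paired analysis was possible because the labels give no replicate numbers; those used here only name libraries. Of the 8 relatives edgeR called 0, as did every alternative except DESeq2 and the refit without CXCL12-deficient replicate 2, which each called 1, Adcy7. Npr1 and Adcy2 were chosen by this contrast, so their own calls are a description and support nothing: with them, 2 of the 10 members were called, 2 or 3 under the 8 alternatives of scaling, filter and tool, and between 0 and 3 in the 6 refits without a library. That count was 0 when replicate 1 or 3 of either group was dropped, 1 (Npr1) without Control replicate 2, and 3 when CXCL12-deficient replicate 2 was dropped. Over all tested genes edgeR called 637 and DESeq2 1291. Pathway genes called numbered 3, 9 by DESeq2, and from 0 to 5 with 1 library dropped (0 without Control replicate 2 or 3; of the CXCL12-deficient libraries, 1 without replicate 1 and 5 without replicate 2). The log2 fold change of Adcy3, 0.06, lay between -0.084 and 0.23 in these refits and was negative when Control replicate 2 (-0.081) or CXCL12-deficient replicate 2 was dropped. That of Adcy5, -0.14, lay between -0.44 and 0.37 and was positive when Control replicate 2 or CXCL12-deficient replicate 3 (0.11) was dropped. Fewer libraries were fitted in each case. The other 6 relatives kept their sign in each alternative that gave a value. The deposited log2 values, which are shrunken, gave the smallest estimate for Npr1 (0.90). Levels per kilobase of the longest transcript moved by more than 1 SD for Npr2 in both groups, for Adcy4 in Control and for Adcy6 in CXCL12-deficient libraries, and left the order of the genes as it was. Depth limits Npr3 most.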
